A study of Mus musculus with 9 samples.

Results

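A set of 6 genes was described in cultured primary mouse microglia, the resident macrophages of the brain: Fgl2, Swap70, Map2k4, B3galnt1, Gda, and Rps6ka2. These 6 of 54119 genes were chosen because their counts moved in the same direction after Chd8 and Tsc2 small interfering RNA (siRNA) treatment, so their differences from control siRNA, and the calls of these differences that chose them, are given as a description and not as independent tests. RNA-seq of total RNA from C57BL/6J microglia gave 9 libraries, 3 after Chd8 siRNA, 3 after Tsc2 siRNA, and 3 after a control siRNA, numbered 1, 2, and 3 within each group. An siRNA lowers the mRNA it matches. Chd8 encodes a chromatin remodeler and Tsc2 a brake on mTOR signaling, and mutations in both are linked to autism spectrum disorder. The study's results describe lipopolysaccharide (LPS) stimulation before RNA-seq. Its RNA-seq methods name only the siRNA treatment, its culture methods describe LPS activation of siRNA-treated microglia and do not list RNA-seq among the exceptions, and the sample labels name no LPS. Both knockdowns are compared with the same 3 control libraries. The methods describe each biological replicate as its own culture from 1 embryonic brain, and do not say whether libraries of different siRNAs with the same number share a culture.

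Levels are given as normalized CPM, that is counts per gene scaled to a common library size. Total counts ranged from 16913005 to 33213477 per library, and the floor of 3 counts was between 0.0903 and 0.177 CPM, which covers counting error only. Chd8 itself was at 118, 97.5, and 93.6 CPM in control libraries 1, 2, and 3, and at 86.8, 44.6, and 38.2 CPM after Chd8 siRNA. Tsc2 was at 40.8, 39.9, and 38.9 CPM in the controls and at 24.6, 30.6, and 36.4 CPM after Tsc2 siRNA. Within numbers 1, 2, and 3, Chd8 was at 0.736, 0.457, and 0.408 times its control after Chd8 siRNA. Tsc2 was at 0.602, 0.768, and 0.937 times its control after Tsc2 siRNA, so it was lowered only little in library 3. The microglia marker genes summed to 2145 to 2961 CPM over the 9 libraries, with Csf1r, the receptor for the growth factor that keeps microglia alive, between 405 and 572 CPM. Among the markers of resting microglia, Tmem119 did not exceed 1.11 CPM and P2ry12 did not exceed 2.78 CPM in any library. Genes that respond to LPS summed to 9925 to 24687 CPM over the 9 libraries. In bulk libraries, fewer cells of a type and less RNA per cell cannot be told apart.

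The 6 genes belong to different pathways. Fgl2 encodes fibrinogen-like protein 2, which in its membrane-bound form cleaves prothrombin to thrombin and in its secreted form binds the inhibitory Fc gamma receptor and dampens immune responses. Swap70 encodes a phosphoinositide-binding protein that acts with Rac and actin filaments in membrane ruffling. Map2k4 encodes MKK4, a dual-specificity kinase that activates JNK and p38 under stress and inflammatory signals. B3galnt1 encodes globoside synthase, a Golgi enzyme that extends a glycosphingolipid sugar chain with N-acetylgalactosamine. Gda encodes guanine deaminase, which turns guanine into xanthine. Rps6ka2 encodes RSK3, a kinase activated by ERK. Of the 6, Fgl2, Swap70, Map2k4, and B3galnt1 were higher in each knockdown library than in the control library of the same number, and Gda and Rps6ka2 were lower. Of 16229 genes tested, 6.8% were above and 6.72% were below their same-numbered control in all 6 knockdown libraries, the pattern that the choice of genes used.

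Fgl2 lies at chr5:21372642-21378374 on the plus strand (GRCm38) and the annotation lists 1 transcript, which held all of its 40356 counts. Fgl2 was at 136, 119, and 47.4 CPM in control libraries 1, 2, and 3. It was at 252, 227, and 105 CPM after Chd8 siRNA and at 266, 369, and 189 CPM after Tsc2 siRNA. The Tsc2 siRNA libraries all lay above the controls, whereas the Chd8 siRNA library 3 fell below control libraries 1 and 2. The share of all genes with the 3 Tsc2 siRNA libraries above the 3 controls was 3.88%. The group means were 101 ± 47.1 CPM (SD, n = 3) in control siRNA-, 195 ± 79.0 CPM in Chd8 siRNA-, and 275 ± 90.3 CPM in Tsc2 siRNA-treated microglia. The log2 fold change against control siRNA was 0.95 (SE 0.43) after Chd8 siRNA and 1.44 (SE 0.43) after Tsc2 siRNA. Within replicate numbers 1, 2, and 3, Fgl2 was 1.85, 1.90, and 2.21 times its control after Chd8 siRNA and 1.95, 3.10, and 3.99 times its control after Tsc2 siRNA. The ratios after Tsc2 siRNA thus spread more widely than those after Chd8 siRNA. Ccdc146, which overlaps Fgl2 on the opposite strand, held 114 counts over the 9 libraries, and whether the counting used strand is not given in the sources used here.

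Swap70 lies at chr7:110221711-110283506 on the plus strand. It was at 141, 217, and 162 CPM in control libraries 1, 2, and 3, at 203, 382, and 260 CPM after Chd8 siRNA, and at 190, 436, and 378 CPM after Tsc2 siRNA. In both knockdowns the number 1 library lay below control library 2, so the groups overlapped. The means were 173 ± 39.2 CPM (SD, n = 3) in the controls, 282 ± 91.6 CPM after Chd8 siRNA, and 334 ± 128 CPM after Tsc2 siRNA, with log2 fold changes of 0.70 (SE 0.32) and 0.95 (SE 0.32). Within numbers 1, 2, and 3, the ratio to control was 1.44, 1.76, and 1.61 after Chd8 siRNA and 1.35, 2.01, and 2.33 after Tsc2 siRNA. Swap70-201, the full-length coding transcript, held 96.9% of the gene's counts, and between 93.1% and 98.3% in any library. The 3 other listed transcripts are retained introns.

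The start regions of Fgl2 and Swap70 are shown because these 2 genes had the highest mean level per length of the 6 and were the only members in whose 300-base promoter any of 8 searched motifs was found. Each runs from 250 bases before to 50 bases after the RefSeq start site (GRCm38.p6), at chr5:21372423-21372722 and chr7:110221453-110221752, both on the plus strand. Capitals mark the motif matches.
Fgl2 promoter: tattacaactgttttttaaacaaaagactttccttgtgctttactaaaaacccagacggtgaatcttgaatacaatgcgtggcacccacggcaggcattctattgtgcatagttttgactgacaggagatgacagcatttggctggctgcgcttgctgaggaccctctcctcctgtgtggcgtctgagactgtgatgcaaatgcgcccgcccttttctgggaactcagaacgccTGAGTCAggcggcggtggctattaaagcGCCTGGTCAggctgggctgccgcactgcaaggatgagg
Swap70 promoter: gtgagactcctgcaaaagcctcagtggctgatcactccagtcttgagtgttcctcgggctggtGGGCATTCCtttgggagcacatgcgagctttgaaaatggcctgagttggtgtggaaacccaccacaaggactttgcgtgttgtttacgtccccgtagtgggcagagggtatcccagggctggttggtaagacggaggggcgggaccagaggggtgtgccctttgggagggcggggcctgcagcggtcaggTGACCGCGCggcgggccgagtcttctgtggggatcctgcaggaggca
In Fgl2 the first match, beginning 16 bases before the start site, is the AP-1 site TGANTCA, where AP-1 is the factor that JNK acts on through Jun, and 7.81% of 32851 promoters of this length hold it. The second match, beginning 12 bases after the start site on the other strand, is the antioxidant response element core TGACNNNGC, held by 12.4% of promoters. In Swap70 the same core began 3 bases after the start site, and an NF-kB-type site, GGGNNTTCC, began 187 bases before it, a motif that 5.82% of promoters hold. The other motifs, searched on both strands, were the cAMP response element TGACGTCA, the interferon response core GAAANNGAA, the PU.1-type core GAGGAAGT, the E-box CACGTG, and the TATA box TATAAA. The AP-1, cAMP response element, and E-box motifs read the same on both strands, and no match overlapped another. The promoters of Map2k4 (2 listed start sites), B3galnt1, Gda, and Rps6ka2 held none of the 8 in these windows. A match is a description of letters and was not tested as a binding site.

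Map2k4 lies at chr11:65688243-65788297 on the minus strand. It was at 135, 87.1, and 59.2 CPM in control libraries 1, 2, and 3, at 182, 164, and 124 CPM after Chd8 siRNA, and at 165, 133, and 129 CPM after Tsc2 siRNA. Control library 1 lay above the lowest library of the Chd8 siRNA group and above 2 of the 3 Tsc2 siRNA libraries, so both knockdown groups overlapped the controls. The means were 93.7 ± 38.3 CPM (SD, n = 3) in the controls, 157 ± 29.5 CPM after Chd8 siRNA, and 142 ± 19.6 CPM after Tsc2 siRNA, and the log2 fold changes were 0.74 (SE 0.27) and 0.60 (SE 0.27). Within numbers 1, 2, and 3, the ratios were 1.35, 1.88, and 2.10 after Chd8 siRNA and 1.22, 1.53, and 2.18 after Tsc2 siRNA, lowest at number 1 in both. Of 7 listed transcripts, Map2k4-201 held 91.2% of the counts and between 85.5% and 92.8% in any library.

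B3galnt1 lies at chr3:69574158-69598960 on the minus strand, with 1 listed transcript. It was at 35.9, 26.0, and 20.8 CPM in control libraries 1, 2, and 3, at 47.8, 45.7, and 33.1 CPM after Chd8 siRNA, and at 53.2, 42.2, and 35.6 CPM after Tsc2 siRNA. Control library 1 lay above the number 3 library of each knockdown, and all other knockdown libraries lay above the controls. The means were 27.5 ± 7.66 CPM (SD, n = 3), 42.2 ± 7.97 CPM, and 43.7 ± 8.88 CPM, with log2 fold changes of 0.61 (SE 0.24) after Chd8 siRNA and 0.66 (SE 0.24) after Tsc2 siRNA. The ratios within numbers ranged from 1.33 to 1.76 after Chd8 siRNA and from 1.48 to 1.71 after Tsc2 siRNA.

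Gda lies at chr19:21391307-21473445 on the minus strand. It was at 14.3, 9.91, and 12.7 CPM in control libraries 1, 2, and 3, at 8.47, 6.51, and 4.98 CPM after Chd8 siRNA, and at 7.90, 6.02, and 5.74 CPM after Tsc2 siRNA. All 6 knockdown libraries lay below all 3 controls, a pattern held by 1.12% of all genes and by no other of the 6 genes described. The means were 12.3 ± 2.24 CPM (SD, n = 3), 6.65 ± 1.75 CPM, and 6.55 ± 1.18 CPM, and the log2 fold changes were −0.89 (SE 0.26) after Chd8 siRNA and −0.91 (SE 0.26) after Tsc2 siRNA. Within numbers 1, 2, and 3, Gda was at 0.591, 0.656, and 0.391 times its control after Chd8 siRNA and at 0.551, 0.607, and 0.450 times after Tsc2 siRNA. Gda had the fewest counts of the 6, down to 102 in a library, and their division among transcripts was uneven. Gda-201 held between 28.3% and 92.5% of the gene's counts in a library, and Gda-204 held counts in 3 libraries only, with 57.8% in Chd8 siRNA library 2, 35.8% in Tsc2 siRNA library 2, and 10.7% in Tsc2 siRNA library 3. Gda-201 alone was at 7.31, 8.87, and 9.31 CPM in control libraries 1, 2, and 3, at 7.84, 1.98, and 3.83 CPM after Chd8 siRNA, and at 6.75, 1.70, and 3.89 CPM after Tsc2 siRNA. With this transcript Chd8 siRNA library 1 lay above control library 1, so the separation of all 6 knockdown libraries from the controls was lost, and the log2 fold changes were −0.90 and −1.04.

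Rps6ka2 lies at chr17:7170115-7303315 on the plus strand. It was at 19.6, 45.1, and 44.4 CPM in control libraries 1, 2, and 3, at 15.5, 27.5, and 27.1 CPM after Chd8 siRNA, and at 11.96, 24.3, and 25.3 CPM after Tsc2 siRNA. Control library 1 lay below 2 libraries of each knockdown, so the groups overlapped, whereas numbers 2 and 3 nearly coincided within each group. The means were 36.4 ± 14.5 CPM (SD, n = 3), 23.4 ± 6.81 CPM, and 20.5 ± 7.44 CPM, and the log2 fold changes were −0.64 (SE 0.38) after Chd8 siRNA and −0.82 (SE 0.38) after Tsc2 siRNA. Within numbers 1, 2, and 3, the ratios to control were 0.789, 0.609, and 0.611 after Chd8 siRNA and 0.609, 0.539, and 0.570 after Tsc2 siRNA. Rps6ka2-201 held 80.6% of the counts of 5 listed transcripts, between 72.5% and 91.1% in any library.

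**Figure D1:**
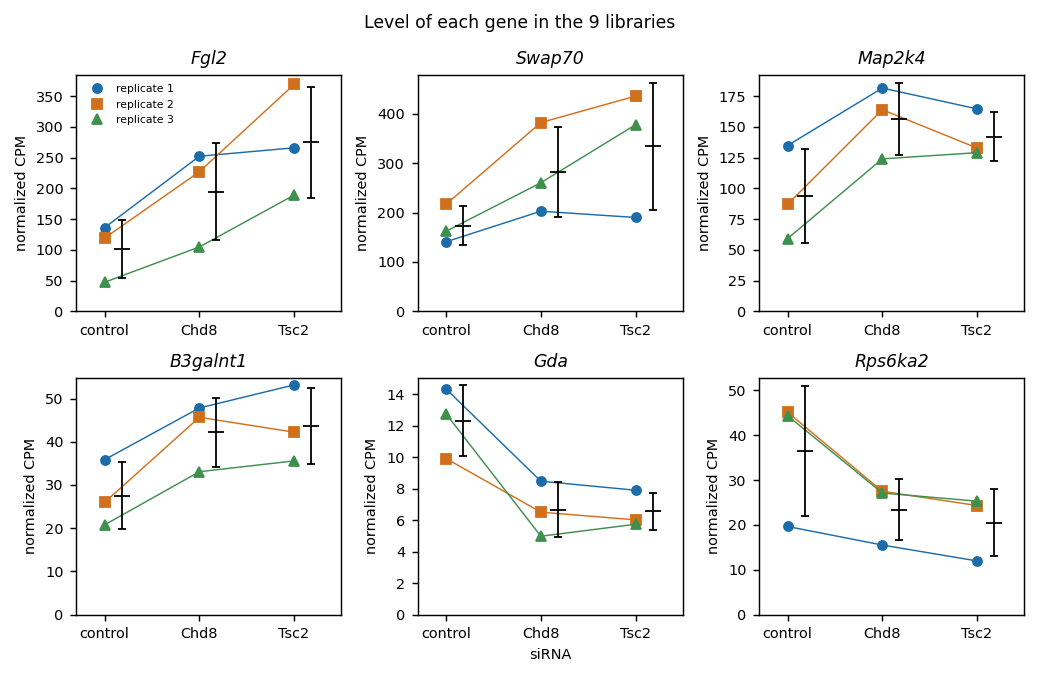
Normalized CPM (y axis, linear from 0) of each gene in the control, Chd8, and Tsc2 siRNA libraries (x axis), with lines joining libraries of the same replicate number and black bars giving the mean ± SD of 3 libraries. Within each number, all lines of Fgl2, Swap70, Map2k4, and B3galnt1 lie above their control in both knockdowns and those of Gda and Rps6ka2 below it, while the groups as a whole overlap except for Gda and for Fgl2 after Tsc2 siRNA.

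Levels per transcript length, as TPM (counts divided by transcript length and scaled to a common total) averaged over the 9 libraries, were 34.0 for Swap70, 25.0 for Fgl2, 24.3 for Map2k4, 9.38 for B3galnt1, 3.54 for Rps6ka2, and 1.25 for Gda. Swap70 ranked 1043 and Gda 8037 of 54119 genes by this level. In the controls the order was Swap70 (22.5 ± 2.60 TPM, SD, n = 3), Map2k4 (18.1 ± 7.19), Fgl2 (13.02 ± 5.71), B3galnt1 (6.75 ± 1.88), Rps6ka2 (4.49 ± 2.00), and Gda (1.88 ± 0.741). Each neighbouring pair in this order overlapped in the range of its 3 control libraries. After Tsc2 siRNA, Fgl2 stood at 37.1 ± 8.52 TPM, above Map2k4 at 26.6 ± 3.52 TPM and below Swap70 at 44.6 ± 16.2 TPM.

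Levels of these genes also differed between replicate numbers. In a fit with the siRNA and the number as terms, edgeR's quasi-likelihood F test of the number passed an FDR of 0.05 for 25.1% of all genes and for 5 of the 6. The adjusted p was 2.70e-05 for Fgl2, 0.000100 for Swap70, 0.00192 for Map2k4, 0.00151 for B3galnt1, 1.85e-05 for Rps6ka2, and 0.149 for Gda. The genes had come from a fit with the same terms, in which a small residual spread favors both calls, so their count of 5 is not independent of how they were chosen. In a fit of the number alone, the adjusted p for Fgl2, Swap70, Map2k4, and B3galnt1 was 0.170, 0.0517, 0.214, and 0.157, and Rps6ka2 still passed.

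The numbers did not order the genes alike. Fgl2 was lower at number 3 than at number 1 (log2 difference −1.10) and differed little between numbers 1 and 2 (0.03). Swap70 was higher at number 2 (0.90) and number 3 (0.52) than at number 1, and Rps6ka2 was higher by 1.02 at both. Map2k4 and B3galnt1 were lower at number 3 than at number 1, by log2 differences of −0.69 and −0.63. The siRNA took 74.8% of the sum of squares of log2 CPM for Gda and 33.1% for Rps6ka2, with 47.1% to 57.1% for the other 4. The median over all genes was 18.1%, and a higher siRNA share follows from choosing genes that shifted in both knockdowns. The number took 65.3% for Rps6ka2 and 18.2% for Gda, against a median of 42.0%.

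**Figure D2:**
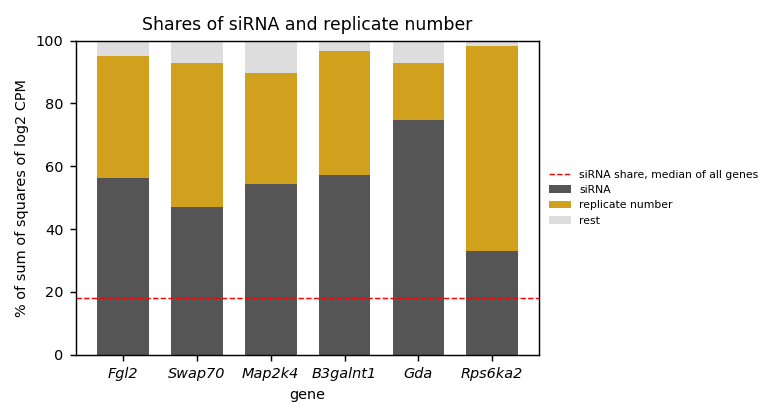
Percentage of the sum of squares of log2 CPM (y axis) of each gene (x axis) that falls to the siRNA, to the replicate number, and to the rest, over 9 libraries. The siRNA share is largest for Gda (74.8%) and smallest for Rps6ka2 (33.1%), and the dashed line marks its median over all genes tested (18.1%).

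In the fit with the siRNA as the only factor, edgeR's quasi-likelihood test called 0 genes (0%) in either knockdown against control siRNA at FDR 0.05 and 1.5-fold, although 622 genes after Chd8 siRNA and 420 after Tsc2 siRNA had an unadjusted p under 0.05. DESeq2's Wald test called 9 and 5 genes. With the replicate number as a block, edgeR called 86 genes (0.53%) after Chd8 siRNA, 40 higher (0.246%) and 46 lower (0.283%), and 63 (0.388%) after Tsc2 siRNA, 31 higher (0.191%) and 32 lower (0.197%). In both knockdowns and in the same direction, 15 genes (0.0924%) were called, 9 higher (0.0555%) and 6 lower (0.037%), and all 6 genes described were among them, which is how they were chosen. With the block, the log2 fold changes of Fgl2 were 0.98 (SE 0.14) and 1.54 (SE 0.14), those of Swap70 0.67 (SE 0.11) and 0.89 (SE 0.12), and those of Map2k4 0.79 (SE 0.12) and 0.66 (SE 0.12), each after Chd8 and Tsc2 siRNA in turn. Those of B3galnt1 were 0.63 (SE 0.11) and 0.68 (SE 0.11), those of Gda −0.91 (SE 0.20) and −0.92 (SE 0.19), and those of Rps6ka2 −0.59 (SE 0.12) and −0.81 (SE 0.12). The block left the sizes near those without it and lowered the standard errors, least for Gda.

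The calls against control siRNA chose these genes, so fits that leave out 1 of the 6 libraries of a comparison are given only as a description, and nothing is supported by them. Each such fit also has fewer libraries, so a lost call does not show that the call rested on the library left out. With the block, Fgl2 after Tsc2 siRNA was called in 6 of 6 such fits, with log2 fold changes between 1.35 and 1.79. Fgl2 after Chd8 siRNA and Swap70 after Tsc2 siRNA were called in 5 of 6, and each lost its call without control library 3, with log2 fold changes between 0.84 and 1.15 and between 0.72 and 1.08. Map2k4, B3galnt1, and Rps6ka2 in both knockdowns and Swap70 after Chd8 siRNA were called in 2 or 3 of 6, and each lost its call without control library 2, control library 3, or knockdown library 2. The log2 fold changes stayed past 1.5-fold in all 6 fits for Swap70 (0.59 to 0.83) and Map2k4 (0.62 to 0.99) after Chd8 siRNA and for B3galnt1 (0.63 to 0.77) and Rps6ka2 (−0.89 to −0.75) after Tsc2 siRNA. They were past it in 4 of 6 for Map2k4 after Tsc2 siRNA (0.49 to 0.87) and B3galnt1 after Chd8 siRNA (0.55 to 0.72), and in 2 of 6 for Rps6ka2 after Chd8 siRNA (−0.69 to −0.52). The call of Swap70 after Chd8 siRNA was also lost without Chd8 siRNA library 1. Without knockdown library 3, the calls of B3galnt1 in both knockdowns, Rps6ka2 after Chd8 siRNA, and Map2k4 after Tsc2 siRNA were lost as well. Gda was called in 0 of 6 in either knockdown, with log2 fold changes between −1.02 and −0.74 after Chd8 siRNA and between −1.03 and −0.74 after Tsc2 siRNA.

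**Figure D3:**
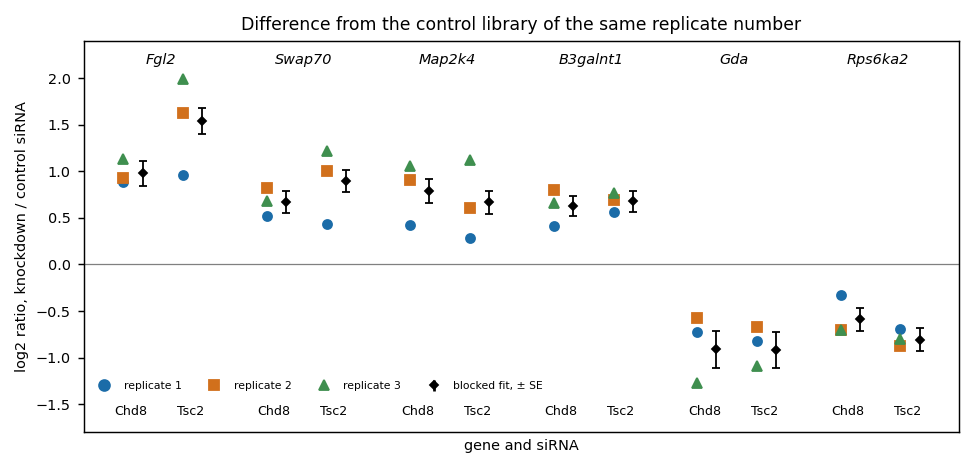
Log2 ratio of each knockdown library to the control library of the same replicate number (y axis), for each gene and siRNA (x axis). Colored symbols are the 3 replicate numbers and black diamonds the log2 fold change of the blocked fit ± SE, and the widest separation of the numbers is that of Fgl2 after Tsc2 siRNA, from 1.95-fold to 3.99-fold.

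Summed markers of other cells differed between the numbers and, within numbers, between knockdown and control libraries. The 8 astrocyte markers, 7 of which passed the count filter, summed to 106 CPM in control library 3, 47.1 CPM in Chd8 siRNA library 3, and 51.0 CPM in Tsc2 siRNA library 3, against 27.4 CPM or less in the other 6 libraries, and were below the control of their number in 5 of 6 knockdown libraries. Of these, Gfap, the astrocyte filament protein, reached 15.3 CPM and Aqp4, the water channel of astrocyte end feet, 46.4 CPM in control library 3. The 7 tested astrocyte markers did not move together. Gfap was below the control of its number in all 6 knockdown libraries, and the other 6 were mixed, with Aldh1l1 above it in 4 of 6. The summed 6 fibroblast markers, 4 of which passed the filter, were also highest in control library 3. Within numbers 1, 2, and 3, the fibroblast sums were 11.7, 30.0, and 66.9 CPM in the controls, 11.3, 14.9, and 27.5 CPM after Chd8 siRNA, and 8.67, 23.6, and 48.7 CPM after Tsc2 siRNA, so that all 6 knockdown libraries were below the control of their number. Of the 4 tested markers, the collagen genes Col1a1 and Col1a2 were below it in all 6, and Col3a1 and Pdgfrb were not. Col1a1 made up 44.0 of the 66.9 CPM in control library 3, and Pdgfrb, a growth factor receptor of mural cells and fibroblasts, was above the control of its number in 4 of 6, at 4.03, 9.54, and 14.2 CPM in the controls and 4.40, 15.0, and 18.3 CPM after Tsc2 siRNA. Col1a1 was called lower after Chd8 siRNA with the replicate block (log2 fold change −1.31, edgeR adjusted p = 0.0216), from a mean of 19.8 CPM in the controls, and this call was lost when control library 2 or 3 or Chd8 siRNA library 2 or 3 was left out, with log2 fold changes between −1.60 and −0.99 over the 6 fits. The LPS response genes summed to 9925 to 12096 CPM in the number 1 libraries and 18574 to 24687 CPM in the other 6. The widest gap in CPM was that of Tnf, an inflammatory cytokine, at 1255 to 1829 CPM in the number 1 libraries and 5028 to 10642 CPM in the other 6. Il1b, Il6, Il12b, Cxcl10, and Ptgs2 were also lowest at number 1 in each group. Ccl5 and Nos2 were not, and Nos2 was at 673, 460, and 426 CPM at numbers 1, 2, and 3 after Tsc2 siRNA. Endothelial markers summed to 150.1, 148, and 193 CPM in control libraries 1, 2, and 3, to 122, 108, and 135 CPM after Chd8 siRNA, and to 128, 116, and 169 CPM after Tsc2 siRNA, with Tek listed at 0 in all libraries. The endothelial sums and those of the neuron markers, which did not exceed 7.04 CPM, were also below the control of their number in all 6 knockdown libraries. The endothelial sum was mostly 1 gene, Flt1, a VEGF receptor, at 136, 140.1, and 186 CPM in the controls, while Cdh5, a cadherin of endothelial junctions, was above the control of its number in 5 of 6 at 4.48 CPM or less. None of the 4 tested neuron markers was below it in all 6. The microglia marker sums were above it in all 6, at 2812, 2623, and 2145 CPM in the controls, 2961, 2740, and 2297 CPM after Chd8 siRNA, and 2819, 2742, and 2733 CPM after Tsc2 siRNA, but its 9 tested markers did not move together. Of these, 2 (Aif1 and C1qa) were above it in all 6, 2 (Csf1r and Cx3cr1) were below it in all 6, and 5 were mixed. Csf1r was at 572, 479, and 446 CPM in the controls, 488, 454, and 405 CPM after Chd8 siRNA, and 479, 428, and 429 CPM after Tsc2 siRNA. Each of the 6 genes likewise lay on the same side of the control of its number in all 6 knockdown libraries. Oligodendrocyte markers did not exceed 31.2 CPM. The part of these cells in the levels of the 6 genes was not tested.

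The other genes called in both knockdowns with the block included Gm4294, Cd5l, Srp14, and Ifi27l2a, which were higher, and Neat1, Slc7a11, Cemip, and A2m, which were lower. Cd5l, a secreted macrophage survival protein, was at a mean of 3.80 CPM in the controls, 16.3 CPM after Chd8 siRNA, and 11.6 CPM after Tsc2 siRNA. Ifi27l2a, an interferon-induced gene, was at 48.5, 77.8, and 86.8 CPM, and Srp14, a subunit of the signal recognition particle, was at 22.1, 49.6, and 40.5 CPM. Gm4294, a predicted gene, had 0 counts in every control and means of 2.95 and 1.79 CPM in the knockdowns. Slc7a11, the cystine transporter that supplies glutathione synthesis, was at 315, 169, and 184 CPM, and Neat1, the RNA scaffold of nuclear paraspeckles, was at 325, 193, and 205 CPM. Cemip, a hyaluronan-degrading protein, was at 25.9, 12.7, and 10.5 CPM and A2m, a protease inhibitor, was at 8.72, 2.93, and 3.39 CPM.

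The knockdowns were also compared with each other. The genes were chosen by their differences from control siRNA in these same 6 libraries, for moving the same way in both knockdowns, which biases this comparison towards agreement, so the absence of a call among them is not read as likeness. Without the block the log2 fold change of Chd8 siRNA over Tsc2 siRNA was −0.50 for Fgl2 (95% interval −1.44 to 0.45), −0.25 for Swap70 (−0.96 to 0.46), 0.14 for Map2k4 (−0.46 to 0.74), −0.05 for B3galnt1 (−0.57 to 0.48), 0.02 for Gda (−0.55 to 0.60), and 0.18 for Rps6ka2 (−0.66 to 1.03). None of the 6 passed edgeR's quasi-likelihood test (adjusted p = 1.00 for each), and the Chd8 and Tsc2 siRNA groups overlapped in all 6, against 8.41% of all genes whose groups did not. Except for B3galnt1, each interval includes a difference of 1.5-fold, and the test does not show that the knockdowns act alike. No gene was called in this comparison (503 had an unadjusted p under 0.05, and DESeq2 called 5), and 36 (0.222%) were called with the block.

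With the block, Fgl2 was lower after Chd8 siRNA than after Tsc2 siRNA by a log2 fold change of −0.56 (SE 0.14, 95% interval −0.85 to −0.27), and it did not pass after adjustment over all genes (unadjusted p = 0.000889, edgeR adjusted p = 0.109). Fgl2 was lower after Chd8 siRNA in 3 of 3 numbers, by little at number 1 (252 against 266 CPM) and by more at numbers 2 (227 against 369 CPM) and 3 (105 against 189 CPM). Without Tsc2 siRNA library 1 the difference was −0.80 with an adjusted p of 0.000739, and over the 6 fits that each left out 1 library it ranged from −0.80 to −0.36, weakest without Tsc2 siRNA library 3, with adjusted p from 0.000739 to 0.556. Swap70 differed by −0.22 (interval −0.47 to 0.02, adjusted p = 0.513), and without the same library by −0.40 (adjusted p = 0.0442), with a range from −0.40 to −0.05 over the same fits (adjusted p 0.0442 to 0.951), again weakest without Tsc2 siRNA library 3. For Map2k4, B3galnt1, Gda, and Rps6ka2 the blocked differences were 0.12 (interval −0.14 to 0.38), −0.05 (−0.28 to 0.18), 0.01 (−0.41 to 0.43), and 0.22 (−0.04 to 0.48), with adjusted p of 0.791, 0.923, 0.991, and 0.568.

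**Figure D4:**
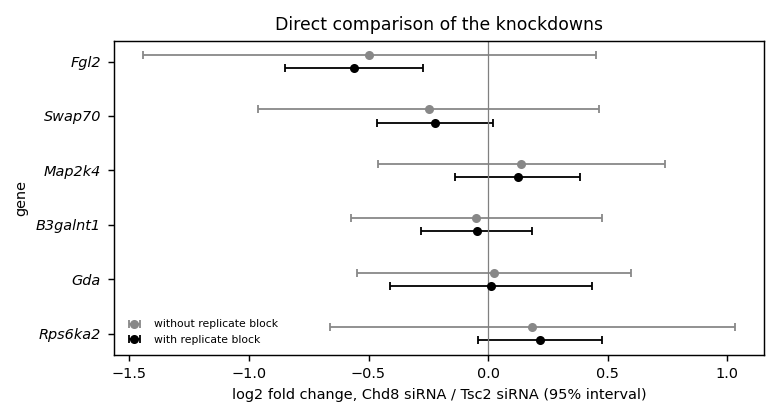
Log2 fold change of Chd8 siRNA over Tsc2 siRNA (x axis) with its 95% interval for each gene (y axis), in edgeR fits without (grey) and with (black) the replicate block. All grey intervals include 0, and with the block the interval of Fgl2, from −0.85 to −0.27, lies below 0.

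The pathways around each gene were read from lists of related genes, and without the block 0 of their genes were called in either knockdown. Fgl2 shares a fibrinogen-related domain with the fibrinogen chains, angiopoietin-like proteins, tenascins, and ficolins. Of 21 such genes 9 passed the count filter, and 0 were called with the block in either knockdown, in which 0.53% (Chd8 siRNA) and 0.388% (Tsc2 siRNA) of all genes were called, so that a list of this length would hold few or no calls at the same shares. The fibrinogen chain genes Fga, Fgb, and Fgg were at 0 counts in all libraries. The highest of the family per length were Tnc, an extracellular matrix protein at 83.5 ± 92.0, 128 ± 166, and 67.2 ± 70.5 CPM in the control, Chd8, and Tsc2 siRNA groups (SD, n = 3 each), and Fcna, a lectin at 2.42 ± 1.34, 1.89 ± 0.792, and 2.03 ± 0.603 CPM.

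Of 15 tested genes of clotting, fibrinolysis, and the Fgl2 receptors, 1 was called lower after Tsc2 siRNA (0.197% of all genes) and 0 after Chd8 siRNA (0.53% called in all), with median log2 fold changes of −0.01 and −0.03 against −0.01 and −0.02 over all genes. The lower gene was Procr, the receptor of protein C that holds clotting in check, at 52.0 ± 6.00 CPM in the controls, 37.0 ± 5.67 CPM after Chd8 siRNA, and 27.4 ± 7.53 CPM after Tsc2 siRNA (log2 fold change −0.94, edgeR adjusted p = 0.0160 with the block). Its call was kept in 2 of 6 fits that left out 1 library and lost without control libraries 2 or 3 or Tsc2 siRNA libraries 2 or 3, with log2 fold changes between −1.20 and −0.72. Fcgr2b, the inhibitory Fc receptor that binds secreted Fgl2, was at 387 ± 117, 395 ± 185, and 477 ± 130 CPM (Tsc2 siRNA adjusted p = 0.220 with the block). Plaur, the receptor of urokinase and the highest of the list per length, was at 439 ± 122, 478 ± 141, and 407 ± 131 CPM.

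Around Swap70, 0 of 27 genes of Rac signaling and related GTPases were called in either knockdown (all genes 0.53% and 0.388%), with medians of 0.07 after Chd8 siRNA and 0.05 after Tsc2 siRNA and no log2 fold change beyond −0.57 or 0.50 with the block. Rac2, the Rac of blood cells, was at 368 ± 76.9, 335 ± 115, and 398 ± 68.8 CPM, and Arhgdia, an inhibitor of Rac and related GTPases, at 471 ± 52.2, 450 ± 42.0, and 476 ± 40.0 CPM in the control, Chd8, and Tsc2 siRNA groups.

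Around Map2k4, 1 of 26 tested genes of the JNK and p38 cascade was called higher after Tsc2 siRNA (0.191% of all genes) and 0 after Chd8 siRNA (0.53% called in all), with medians of −0.02 and 0.02. The higher gene was Dusp1, a phosphatase that switches JNK and p38 off, at 252 ± 123, 314 ± 168, and 368 ± 114 CPM (Tsc2 siRNA log2 fold change 0.63, edgeR adjusted p = 0.0169 with the block). The call was kept in 2 of 6 fits that left out 1 library, and lost without control libraries 2 or 3 or Tsc2 siRNA libraries 2 or 3, with log2 fold changes between 0.43 and 0.77. Mapkapk2, a kinase activated by p38, was at 1150 ± 75.1, 1125 ± 21.7, and 1192 ± 59.3 CPM. Around Rps6ka2, 1 of 23 tested genes of the ERK and RSK cascade was called lower after Tsc2 siRNA (0.197% of all genes) and 0 after Chd8 siRNA (0.53% called in all), with medians of −0.08 and 0.09. It was Dusp4, a phosphatase of ERK, at 19.6 ± 5.84, 13.7 ± 5.46, and 8.93 ± 1.69 CPM (Tsc2 siRNA log2 fold change −1.13, edgeR adjusted p = 0.0116 with the block), and its call was kept in 2 of 6 fits, lost without control libraries 1 or 3 or Tsc2 siRNA libraries 2 or 3, with log2 fold changes between −1.30 and −0.98. Map2k1, which encodes the ERK kinase MEK1, was at 246 ± 12.3, 262 ± 18.9, and 234 ± 20.2 CPM, and Spred1, an inhibitor of the ERK pathway, at 561 ± 55.9, 663 ± 65.6, and 587 ± 40.2 CPM.

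Around B3galnt1, 0 of 22 glycosphingolipid enzymes were called in either knockdown (all genes 0.53% and 0.388%), with medians of 0.07 and −0.07 after Chd8 and Tsc2 siRNA. Psap, the precursor of the saposins that help break these lipids down, was at 1349 ± 106, 1509 ± 128, and 1367 ± 140 CPM. Around Gda, 1 of 21 tested genes of guanine and purine salvage and breakdown was called higher after Tsc2 siRNA (0.191% of all genes) and 0 after Chd8 siRNA (0.53% called in all), with medians of 0.09 and −0.02. It was Xdh, xanthine dehydrogenase, which oxidizes the xanthine that Gda makes, at 25.3 ± 11.2, 34.5 ± 14.2, and 39.7 ± 15.4 CPM. Its log2 fold change was 0.67 after Tsc2 siRNA (edgeR adjusted p = 0.0104 with the block) and 0.46 after Chd8 siRNA (adjusted p = 0.0612), opposite in sign to Gda in both. The Tsc2 siRNA call was kept in 2 of 6 fits and lost without control libraries 2 or 3 or Tsc2 siRNA libraries 2 or 3, while the log2 fold change stayed between 0.61 and 0.71. Samhd1, which degrades deoxynucleotides, was at 1723 ± 277, 1831 ± 209, and 1719 ± 242 CPM, and Pnp, which releases guanine from its nucleoside, at 1032 ± 23.2, 1036 ± 115, and 1054 ± 23.5 CPM. Of the 8 LPS response genes, 0 were called after Chd8 siRNA or, in either knockdown, without the block, and with the block 1 was called lower (0.197% of all genes) and 1 higher (0.191%) after Tsc2 siRNA. Nos2, the inducible nitric oxide synthase, was lower after Tsc2 siRNA (log2 fold change −0.77, edgeR adjusted p = 0.0202 with the block) and Il12b, an interleukin subunit, higher (0.69, adjusted p = 0.00939). Nos2 kept its call in 2 of 6 fits, lost without control libraries 2 or 3 or Tsc2 siRNA libraries 2 or 3, with log2 fold changes between −1.04 and −0.53. Il12b kept it in 4 of 6, lost without control library 2 or Tsc2 siRNA library 2, with log2 fold changes between 0.55 and 0.83.

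**Figure D5:**
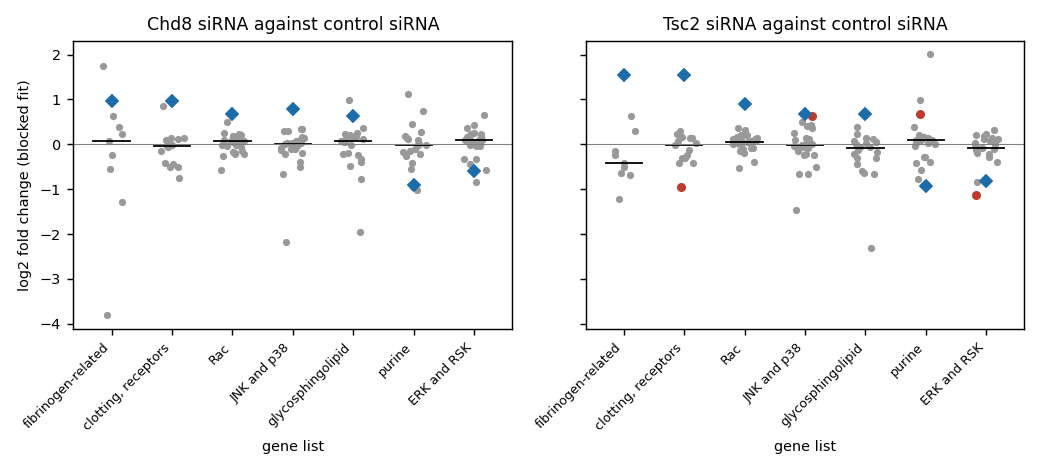
Log2 fold change against control siRNA in the blocked fit (y axis) of the tested genes of each list (grey points, with called genes in red and the list median as a black line) after Chd8 siRNA (left) and Tsc2 siRNA (right), with the gene each list was built around as a blue diamond. The called genes are Procr, Dusp1, Xdh, and Dusp4 after Tsc2 siRNA, and after Chd8 siRNA their log2 fold changes were −0.50, 0.29, 0.46, and −0.56, with no gene of these lists called between the knockdowns.

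Genes whose log2 CPM followed each of the 6 most closely over the 9 libraries were ranked by Pearson's r among 6146 genes (6147 for Gda) with a mean of at least 10 CPM. The 9 points share siRNA groups and replicate numbers, so r describes both together. For Fgl2 they were Gsk3a (0.98), Stk4 (0.97), and Marcks (0.97), which were higher than control by log2 fold changes of 0.22, 0.24, and 0.28 after Chd8 siRNA and 0.31, 0.38, and 0.41 after Tsc2 siRNA with the block, all smaller than those of Fgl2. For Swap70 they were Nxf1 (0.97), Fscn1 (0.96), and Rcbtb2 (0.96), of which Fscn1 encodes the actin-bundling protein fascin. For Map2k4 they were Rbms1 (0.98), Scyl2 (0.97), and Kctd12 (0.97), and for B3galnt1 they were Fbxo3 (0.98), Lhx2 (0.98), and Map2k4 itself (0.96). For Gda they were Tecpr1 (0.94), Mepce (0.92), and Slc36a4 (0.91), and for Rps6ka2 they were Zfp811 (0.95), Polr1a (0.95), and Osbpl3 (0.94). Among the 6 genes, r depends on the shared shifts for which they were chosen. It was 0.96 for Map2k4 and B3galnt1, 0.89 and 0.84 for Fgl2 with B3galnt1 and Map2k4, and 0.55 for Fgl2 with Swap70. Rps6ka2 ran opposite to B3galnt1 (−0.87), Map2k4 (−0.83), and Fgl2 (−0.67), and Gda opposite to Swap70 (−0.83).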

How the data were processed

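Estimated counts per transcript were deposited by the authors without scaling, 1 column for each library, made with Salmon 0.14.1 and mm10 as named in the submitters' processing notes. The kit is a stranded SMARTer kit per the labels and an Illumina total RNA kit per the methods. Of the deposited counts 26.8% to 32.1% per library were fractional, so all were rounded and summed per gene with GENCODE M21 (GRCm38, the assembly of mm10). This matched 139852 of 140948 transcripts, and the 1096 unmatched ones held 0.270% of the counts and were left out.

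DEGs were tested with edgeR 4.0.16 (quasi-likelihood test, filterByExpr, TMM, R 4.3.3) on 9 libraries and 16229 genes with the siRNA as the only factor, Benjamini-Hochberg adjustment, and calls at FDR 0.05 with a 1.5-fold change. The alternatives were DESeq2 1.42.0 (Wald test, likelihood-ratio test, and size factors), no count filter, the transcript with the highest mean count, only 2 groups, each library left out, and the replicate number as a block. Blocked fits with a library left out were chosen after seeing the data. TPM was computed from counts and transcript lengths, and log2 CPM for correlations used a pseudocount of 0.5.

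The replicate numbers come from the sample labels. Deviations from the group means correlated across genes with r between 0.338 and 0.629 in all 9 pairs of libraries with the same number, so the numbers were taken as pairing the libraries. The mean r between other numbers was −0.231, which is no separate evidence, because deviations from a group mean cancel within the group. Genes are not independent replicates.

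The 6 genes and all gene lists were chosen with earlier results of these data known. The genes named are these 6, the 3 genes most like each by Pearson's r among those with a mean of at least 10 CPM, the genes of each list called in a knockdown and its 2 highest per length, and the genes called in both knockdowns with the block. A few genes that this rule names are not reported here. Markers, LPS response genes, the fibrinogen chains, and targeted genes are named as checks. Promoters are RefSeq's (GRCm38.p6), and protein sequences were not analysed here.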

Additional observations from a re-analysis of the deposited data

How the results depend on the processing

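The fold changes of the 6 genes against control siRNA kept their sign under the alternatives run, which their choice favors. Scaling with DESeq2's size factors, leaving out any 1 library, or fitting only the 6 libraries of 2 groups left 0 genes called in every comparison. The replicate block, which pairs libraries by number, raised the calls from 0 to 86 after Chd8 siRNA, 63 after Tsc2 siRNA, and 36 between the knockdowns, and it changed no call of the 6 genes between the knockdowns. With the block and 1 library left out, chosen after seeing the data, the calls ranged from 20 to 81, from 7 to 131, and from 4 to 129. Without the count filter 2 and 1 genes were called against control siRNA, and DESeq2's Wald test called 9, 5, and 5 in the 3 comparisons. The cause was not tested. Between the knockdowns, the small log2 differences of 3 genes changed sign when a library was left out, and ranged from −0.20 to 0.19 for Gda, from −0.18 to 0.12 for B3galnt1, and from −0.090 to 0.41 for Rps6ka2. With the block, Gda ranged from −0.08 to 0.16 and B3galnt1 from −0.13 to 0.03. Genes past the test of the replicate number ranged from 3082 to 4648 over all alternatives against 4077. Gda, with as few as 102 counts in a library, is the gene most limited by depth.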
